A study of Arabidopsis thaliana with 6 samples.

Results

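The mature sequences of miR173, miR390, miR391 and miR828 were followed in small RNA libraries of Arabidopsis thaliana rosette leaves. miR173, miR390 and miR828 set off the production of trans-acting siRNAs (tasiRNAs), and miR391 is a relative of miR390. The members were chosen by name, as every sequence listed under ath-miR173, ath-miR390, ath-miR391 or ath-miR828 from either arm of the hairpin, and were 8 of the 349 mature sequences in the table of the study. Of the 8, 7 had at least 1 read in a library, and 4 averaged 10 reads or more per library and entered the test. RNA came from plants grown in soil for 3 weeks, with no treatment or transgene named in the labels, all in the Col-0 background, and each of 3 genotypes had 2 biological replicates. The genotypes were hyl1-2, which lacks the function of HYL1, a double-stranded RNA-binding protein that works with DICER-LIKE1 in miRNA processing, snrk2.2/3/6, a triple mutant of the abscisic acid-activated protein kinases SnRK2.2, SnRK2.3 and SnRK2.6, and WT, the wild type Col-0. The study asked whether the loss of these kinases changes miRNA levels, with hyl1-2 as a mutant known to lack many miRNAs. The sources used here do not say how many plants went into a library.

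A tasiRNA begins as a long non-coding transcript of a TAS gene. A miRNA guides an ARGONAUTE protein to the transcript, RNA-DEPENDENT RNA POLYMERASE6 makes it double-stranded, and DICER-LIKE4 cuts it into phased siRNAs that then silence other genes. miR173 acts on the TAS1 and TAS2 transcripts, whose siRNAs target pentatricopeptide repeat genes and other transcripts. miR390 is held almost only by ARGONAUTE7 and binds TAS3 transcripts at a pair of sites, and the TAS3 siRNAs silence auxin response factors that act in leaf development and phase change. miR828 acts on TAS4, and on MYB transcripts of the anthocyanin pathway. The function of miR391 is much less known.

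The mature sequences are shown because the length, the first base and the seed differ between the members. They are given 5′ to 3′ as DNA letters, with the seed (bases 2 to 8) in capitals.
miR173-5p: tTCGCTTGcagagagaaatcac
miR390a-5p/b-5p: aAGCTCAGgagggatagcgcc
miR391-5p: tTCGCAGGagagatagcgcca
miR828: tCTTGCTTaaatgagtattcca
miR390a-3p: cGCTATCCatcctgagtttca
miR391-3p: aCGGTATCtctcctacgtagc
miR173-5p and miR828 have 22 bases, a length known from Arabidopsis to favour secondary siRNAs, whereas the miR390 and miR391 5p sequences have 21. Of all 349 listed sequences, 39 have 22 bases. miR390a-5p/b-5p begins with A, while miR173-5p, miR391-5p and miR828 begin with T (U in the RNA). The seeds of miR173-5p, miR390a-5p/b-5p, miR391-5p and miR828 each occur in no other listed sequence, and the only seed shared between members is that of miR390a-3p and miR390b-3p. miR391-5p aligned with miR390a-5p/b-5p over 20 bases with an offset of 1 base and was identical at 16 of them. Counted from the 5′ end of miR390, the differences were A2T, G3T, T5G and G12A, so 3 of the 4 lie in the seed of miR390.

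All members matched TAIR10.1 exactly, each in the exon of its own annotated miRNA gene and on the plus strand. miR173-5p lies at chr3:8236161-8236182 in MIR173 (AT3G23125). miR390a-5p/b-5p matches 2 loci, chr2:16061971-16061991 in MIR390a (AT2G38325) and chr5:23636961-23636981 in MIR390b (AT5G58465), so that its reads cannot be assigned to one gene. The 3p sequences separate these genes, with miR390a-3p at chr2:16062023-16062043 and miR390b-3p at chr5:23637034-23637053. miR391-5p lies at chr5:24293160-24293180 and miR391-3p at chr5:24293211-24293231 in MIR391 (AT5G60408). miR828 lies at chr4:13847020-13847041 in MIR828 (AT4G27765). Between the annotated arms of one precursor lay 30 bases in MIR391, 31 in MIR390a, 44 in MIR173 and 52 in MIR390b.

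The TAS transcripts carry the complements of these sequences, and their best ungapped sites are shown for the miRNA known to act on each. Capitals mark the bases opposite miRNA bases 2 to 8.
TAS1A, miR173-5p: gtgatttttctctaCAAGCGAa
TAS2, miR173-5p: gtgatttttctctcCAAGCGAa
TAS3, miR390, upstream site: ggtgttatcctatCTGAGCTt
TAS3, miR390, downstream site: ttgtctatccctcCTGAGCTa
TAS4, miR828: tggaatactcatttGAGCAAGa
These sites lie in exons, at chr2:11722081-11722102 (minus strand) in TAS1A (AT2G27400), chr2:16539991-16540012 (minus strand) in TAS2 (AT2G39681), chr3:5862099-5862119 and chr3:5862343-5862363 (plus strand) in TAS3 (AT3G17185), and chr3:9417809-9417830 (minus strand) in TAS4 (AT3G25795). miR173-5p had 1 mismatch and 1 G:U pair with each of TAS1A, TAS1C and TAS2 and 2 mismatches and 1 G:U pair with TAS1B. The upstream TAS3 site had 1 mismatch, opposite base 10 of miR390, and 4 G:U pairs. The downstream site had 5 mismatches and 0 G:U pairs, all 5 outside the seed. miR828 had 0 mismatches and 1 G:U pair with TAS4. Among the 8 TAS transcripts searched, the best site of miR173-5p had 1 to 2 mismatches in its 4 known TAS targets and 6 to 7 in the other 4. The best site of miR390 had 1 to 2 mismatches in its 3 known targets (TAS3, TAS3b and TASIR-ARF, the third TAS3 gene, AT5G57735) and 5 to 7 in the other 5. miR391-5p laid over the 6 miR390 sites of these 3 genes had 5 to 9 mismatches, of which 2 to 3 were in its seed. With a G:U pair counted less than a mismatch, its best site in any of the 8 transcripts was over a miR390 site. That site, in TAS3b, had 5 mismatches and 1 G:U pair. The best site of miR391-5p in TAS1A had 4 mismatches but also 6 G:U pairs. A match is a description of the letters and was not a measurement of binding or cleavage.

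The libraries held 16041013 to 19601046 genome-matched reads, and 6670 to 34567 of these were identical to a mature miRNA. Levels are given as reads and as RPTM, the reads expected per 10000000 genome-matched reads of a library. A floor of 3 reads is 1.53 to 1.87 RPTM, and floors and intervals cover counting error only. Summed over all miRNAs, hyl1-2 had 3643 and 3624 RPTM, snrk2.2/3/6 had 17175 and 6475, and WT had 21142 and 18668. The 2 snrk2.2/3/6 libraries therefore differed by a large amount over all miRNAs, and each member with a read in snrk2.2/3/6 had more in replicate 1. What this library difference adds to the members' values was not tested. The table holds no mRNA, so that neither the mutated genes nor leaf markers could be checked in it.

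The members were a small share of the miRNA reads in each library, and in leaf RNA fewer cells with a miRNA and less of it per cell cannot be told apart. Their 8 sequences together had 16 and 14 reads in hyl1-2, 111 and 44 in snrk2.2/3/6, and 128 and 115 in WT. As a share of all miRNA reads this was 0.224% and 0.210% in hyl1-2, 0.383% and 0.424% in snrk2.2/3/6, and 0.370% and 0.378% in WT. In RPTM the members summed to 10.6% of WT in hyl1-2 and to 62.6% in snrk2.2/3/6, beside 18.3% and 59.4% for all miRNAs.

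In WT the order of the levels was miR390a-5p/b-5p with 22.1 ± 1.68 RPTM, miR173-5p with 15.9 ± 3.50, miR391-5p with 13.2 ± 3.00 and miR391-3p with 11.3 ± 4.79 (SD, n = 2). miR390a-3p came next, with 17.1 and 4.91 RPTM. Both WT libraries of miR390a-5p/b-5p lay above both of miR173-5p, and the neighbours after that overlapped. Among the 349 sequences these members held ranks 38, 43, 49, 54 and 56 in WT. miR390b-3p had 2 reads and miR173-3p had 1 read in a single WT library each, and neither had a read in a mutant. miR828 had 0 reads in all 6 libraries, which allows up to 1.87 RPTM in the shallowest of them.

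**Figure D1:**
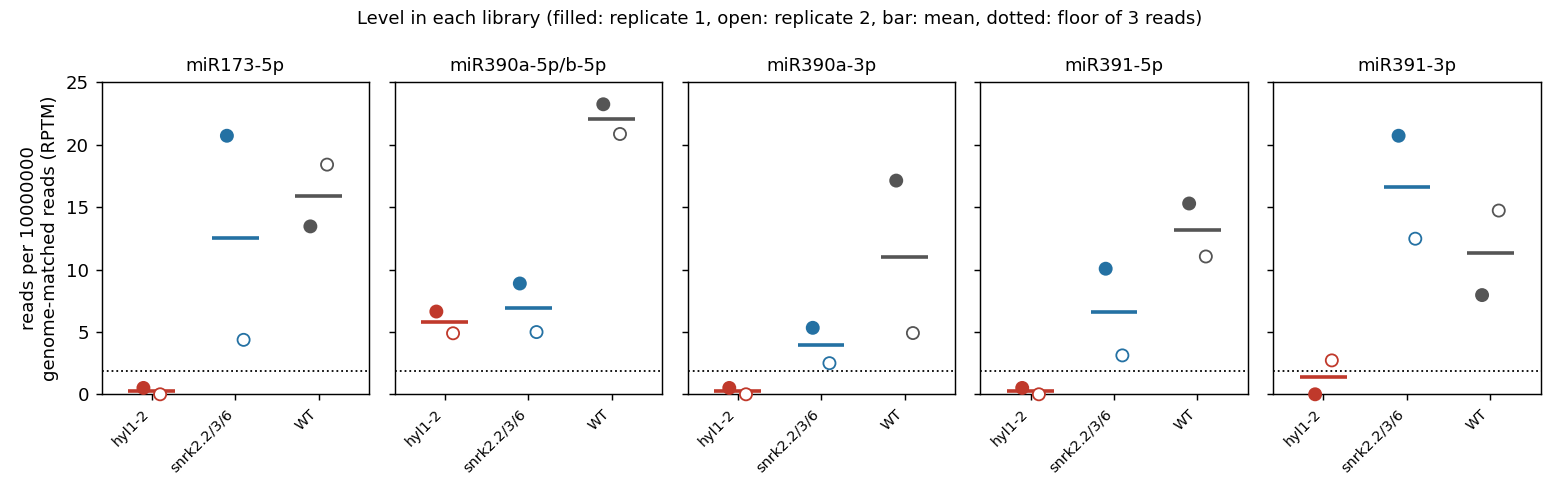
Level of 5 members in RPTM (vertical axis) in the 2 libraries of hyl1-2, snrk2.2/3/6 and WT, with the mean as a bar and the floor of 3 reads as a dotted line. In hyl1-2 only miR390a-5p/b-5p lies above the floor in both libraries, and in snrk2.2/3/6 the mean of miR391-3p is the only one above its WT mean.

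In hyl1-2, miR173-5p and miR391-5p fell to below the floor, miR391-3p fell as well, and miR390a-5p/b-5p was at 26.1% of WT. Against WT, 3 of the 4 tested members were lower in hyl1-2 by edgeR at an adjusted p under 0.05 and 0 were higher, beside 67.8% of all 59 tested sequences that were lower and 1.69% that were higher. The share of members called was thus near that of all miRNAs. The median log2 fold change of the 4 was -4.16, beside -2.62 over the 59. For all 4 the hyl1-2 and WT libraries did not overlap, with hyl1-2 lower, as for 88.1% of the 59, while 0 of the 4 and 3.39% of the 59 were higher in both.

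miR173-5p, the trigger of TAS1 and TAS2, had 1 and 0 reads in hyl1-2, against 22 and 30 reads in WT. In RPTM this was 0.510 and 0 in hyl1-2, against 13.5 and 18.4 in WT. Both hyl1-2 libraries were under the floor, which puts miR173-5p at least 10.1-fold lower in the mutant, and by edgeR the adjusted p was 0.000343. This bound is 8.5-fold without WT replicate 2 and 11.6-fold without WT replicate 1. The fitted log2 fold change of -5.58 is no bound. Its other arm, miR173-3p, did not pass the floor in any library. The call held with TMM factors, which set each miRNA against the others (adjusted p = 0.0295), and when any single library was left out (highest adjusted p = 0.0342). It was lost with the size factors of DESeq2 (adjusted p = 0.110) and without a filter on low counts (adjusted p = 0.0778).

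miR391-5p had 1 and 0 reads in hyl1-2, against 25 and 18 reads in WT, a level at least 8.33-fold lower, with an adjusted p of 0.00167 by edgeR. That bound is 6.99-fold without WT replicate 1 and 9.68-fold without WT replicate 2. The genotypes did not overlap. With TMM factors it was also lower (adjusted p = 0.0260). The call was lost without WT replicate 1 (adjusted p = 0.0905), without WT replicate 2 (adjusted p = 0.0509), with the size factors of DESeq2 (adjusted p = 0.167) and without a filter (adjusted p = 0.0700). The opposite arm, miR391-3p, had 0 and 5 reads in hyl1-2, against 13 and 24 reads in WT, lower by edgeR with a log2 fold change of -3.02 ± 1.12 (standard error) and an adjusted p of 0.0133. One hyl1-2 library was therefore at 0 and the other above the floor. The call on miR391-3p was lost without hyl1-2 replicate 1 (adjusted p = 0.168), without WT replicate 1 (adjusted p = 0.0611), without WT replicate 2 (adjusted p = 0.175), without a filter (adjusted p = 0.154), with the size factors of DESeq2 (adjusted p = 0.710), with total miRNA counts as library sizes (adjusted p = 0.621) and with TMM factors, where its log2 fold change was -0.49 (adjusted p = 0.705).

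miR390a-5p/b-5p, the trigger of TAS3, had 13 and 9 reads in hyl1-2, against 38 and 34 reads in WT. In RPTM this was 6.63 and 4.89 in hyl1-2, against 23.2 and 20.9 in WT. The groups did not overlap, but the log2 fold change, -1.92 ± 0.93 (standard error), missed the threshold (adjusted p = 0.0538, edgeR). It passed in 6 of 17 alternatives, among them DESeq2 with the same totals (adjusted p = 0.0127) and the fit without either snrk2.2/3/6 library (adjusted p = 0.0211 without replicate 1 and 0.0159 without replicate 2). With TMM factors, which moved the median log2 fold change of the 59 sequences to 0.12, that of miR390a-5p/b-5p turned to 0.83 (adjusted p = 0.361). Its rank among the 349 sequences was 35 in hyl1-2 and 38 in WT.

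The opposite arm of miR390 was near 0 in hyl1-2. miR390a-3p had 1 and 0 reads in hyl1-2, against 28 and 8 reads in WT, at least 6.97-fold lower, a bound that is 3.11-fold without WT replicate 1 and 10.8-fold without WT replicate 2. It lay below the minimum of 10 reads in the mean, and with a minimum of 5 reads, at which 75 sequences were tested, it was lower with an adjusted p of 0.00485 by edgeR. The WT libraries of miR390a-3p were far apart, at 17.1 and 4.91 RPTM, whereas those of its partner arm were close together. miR390b-3p, from the second gene, had 0 and 0 reads in hyl1-2 and 2 and 0 in WT, all at or under the floor.

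**Figure D2:**
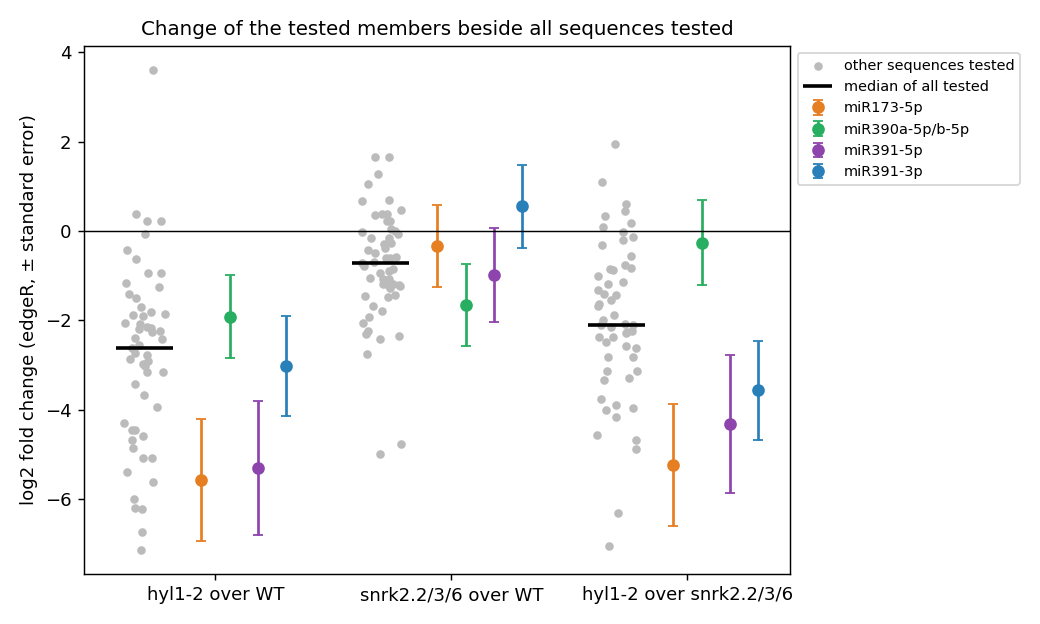
Fitted log2 fold change of the 4 tested members with their standard errors (coloured points), beside the other sequences among the 59 tested (grey points) and the median of the 59 (bars), for each of 3 comparisons by edgeR. miR390a-5p/b-5p stands above the median of the 59 in hyl1-2 over WT and below it in snrk2.2/3/6 over WT, while miR173-5p does the opposite. Without snrk2.2/3/6 replicate 1 (not drawn), miR173-5p is at -1.85 in snrk2.2/3/6 over WT, below a median of -1.75.

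In snrk2.2/3/6 no member passed the test against WT. Of the 4 tested, 0 were lower and 0 higher at an adjusted p under 0.05, beside 3.39% of the 59 sequences that were lower and 0% that were higher. At an unadjusted p under 0.05 edgeR gave 0 of the 4, beside 10 of the 59 lower and 0 higher. DESeq2 with the same totals called 0 of the 4 by the adjusted p and 1, miR390a-5p/b-5p, at an unadjusted p under 0.05 (0.0240). Of the 59, that setting called 4 lower by the adjusted p and 13 lower unadjusted, with 0 higher by either. For limma on log2(RPTM + 5), miR390a-5p/b-5p had an unadjusted p of 0.0314, and 14 of the 59 were lower and 0 higher unadjusted. Without a filter, edgeR gave miR390a-5p/b-5p an unadjusted p of 0.0223, beside 12 lower and 2 higher of 174. With TMM factors edgeR gave miR391-3p, which was higher, 0.0430, beside 6 lower and 12 higher of the 59. Without snrk2.2/3/6 replicate 1 the log2 fold changes were -2.13 for miR390a-5p/b-5p, -2.05 for miR391-5p, -1.85 for miR173-5p and 0.14 for miR391-3p. The median of the 59 was then -1.75. By edgeR the median log2 fold change of the 4 members was -0.66, beside -0.72 over the 59. Without overlap, 2 of the 4, miR390a-5p/b-5p and miR391-5p, were lower in snrk2.2/3/6 and 0 were higher, beside 52.5% and 5.08% of the 59.

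For miR390a-5p/b-5p, snrk2.2/3/6 gave 15 and 8 reads, against 38 and 34 in WT. This was 8.88 and 4.99 RPTM in snrk2.2/3/6, against 23.2 and 20.9 RPTM in WT, so the groups did not overlap and the mean was at 31.4% of WT. Its log2 fold change, -1.66 ± 0.92 (standard error), was the lowest of the 4 but did not pass (adjusted p = 0.334, edgeR). Over the alternatives its adjusted p was between 0.0651 and 0.952, and the lowest was found without snrk2.2/3/6 replicate 1.

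For miR173-5p, snrk2.2/3/6 gave 35 and 7 reads, against 22 and 30 in WT. One snrk2.2/3/6 library was thus the highest of all 6 and the other was below both WT libraries. By edgeR its log2 fold change was -0.34 ± 0.92 (standard error) with an adjusted p of 0.855, and it was 0.38 without snrk2.2/3/6 replicate 2 and 0.34 with TMM factors, so no direction can be given.

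The arms of miR391 had different values in snrk2.2/3/6. miR391-5p was read 17 and 5 times in snrk2.2/3/6, against 25 and 18 times in WT, with a mean at 50.0% of WT, and by edgeR its log2 fold change was -0.99 ± 1.05 (standard error) with an adjusted p of 0.639. The libraries did not overlap, and the log2 fold change was -2.05 without snrk2.2/3/6 replicate 1 (adjusted p = 0.0597) and -0.39 without replicate 2 (adjusted p = 0.676). miR391-3p was read 35 and 20 times in snrk2.2/3/6, against 13 and 24 times in WT, with a mean at 146% of WT, and its log2 fold change was 0.55 ± 0.92 with an adjusted p of 0.795 by edgeR. The miR391-3p libraries of snrk2.2/3/6 and WT overlapped, and its log2 fold change was 1.46 with TMM factors (adjusted p = 0.161) and 0.14 to 1.06 without 1 library. For miR390a-3p, snrk2.2/3/6 gave 9 and 4 reads, against 28 and 8 in WT, the groups overlapped, and with a minimum of 5 reads the adjusted p by edgeR was 0.474.

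The share of 5p reads within a library does not depend on the normalization, and it was therefore compared for miR391, miR390 and miR173. For miR390 it pools the reads of MIR390a and MIR390b, whose 5p sequence is the same, so it is not a share within a single hairpin. For miR391 the 5p share was 32.7% (17 of 52 reads, 95% Wilson interval 21.5 to 46.2%) and 20% (5 of 25 reads, 8.86 to 39.1%) in snrk2.2/3/6, against 65.8% (25 of 38 reads, 49.9 to 78.8%) and 42.9% (18 of 42 reads, 29.1 to 57.8%) in WT. The shares in snrk2.2/3/6 lay below those in WT without overlap, but the intervals of both overlapped that of WT replicate 2, and the difference was not tested. In hyl1-2 miR391 had 1 and 5 reads in all, too few for a share. For miR390 the 5p share was 92.9% (13 of 14 reads, 68.5 to 98.7%) and 100% (9 of 9 reads, 70.1 to 100%) in hyl1-2, 62.5% (15 of 24 reads) and 66.7% (8 of 12 reads) in snrk2.2/3/6, and 55.9% (38 of 68 reads, 44.1 to 67.1%) and 81.0% (34 of 42 reads, 66.7 to 90.0%) in WT. The shares in hyl1-2 were above those in WT without overlap, but the intervals of both reached into that of WT replicate 2. For miR173 all 35 and 7 reads in snrk2.2/3/6 were 5p, against 22 of 22 and 30 of 31 in WT.

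miR391-5p and miR390a-5p/b-5p, which are alike in sequence, were also set against each other within each library. miR391-5p made up 7.14% (1 of 14 reads, 1.27 to 31.5%) and 0% (0 of 9 reads, 0 to 29.9%) of the reads of both in hyl1-2, and 39.7% (25 of 63 reads, 28.5 to 52.0%) and 34.6% (18 of 52 reads, 23.2 to 48.2%) in WT. In snrk2.2/3/6 the share was 53.1% (17 of 32 reads) and 38.5% (5 of 13 reads). The hyl1-2 shares were below the WT shares, though the intervals of hyl1-2 and WT overlapped at these counts, and the difference was not tested.

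**Figure D3:**
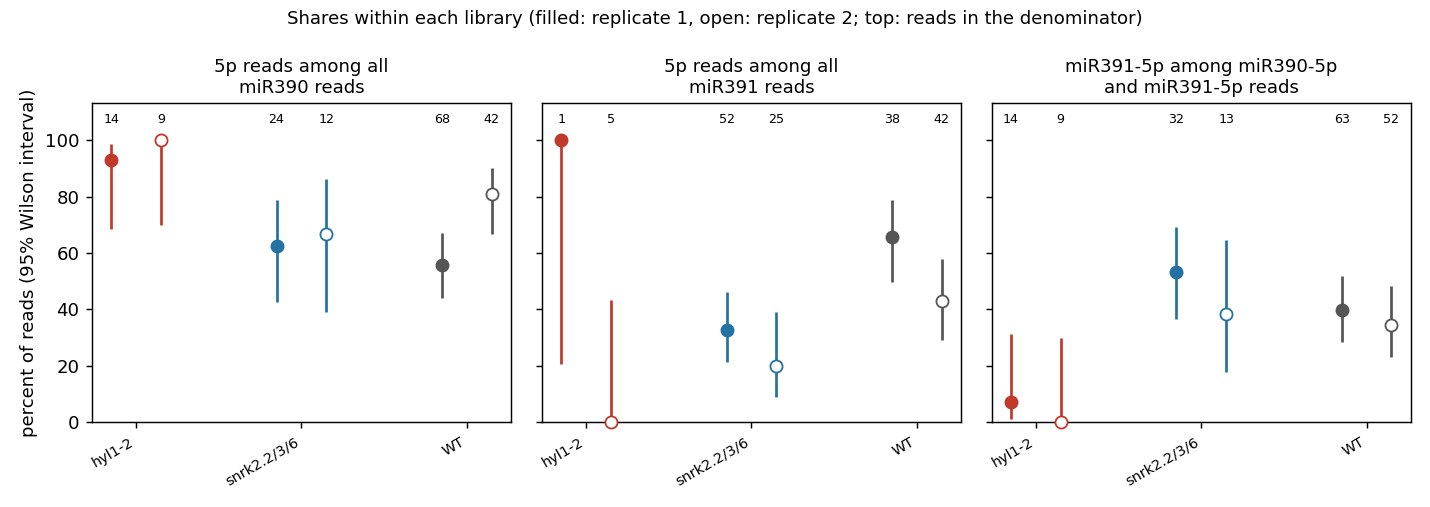
Percent of 5p reads within miR390 and within miR391, and percent of miR391-5p within the reads of both 5p sequences, for each library of hyl1-2, snrk2.2/3/6 and WT, with 95% Wilson intervals and the number of reads in the denominator above. The miR391 5p share is 32.7% and 20% in snrk2.2/3/6 against 65.8% and 42.9% in WT, and in hyl1-2 it rests on 1 and 5 reads.

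Set against each other, the mutants differed in miR173-5p and both arms of miR391 and not, by the test, in miR390a-5p/b-5p. In the direct comparison hyl1-2 was lower by edgeR for 3 of the 4 members and higher for 0, beside 45.8% and 0% of the 59. The median log2 fold change of the 4 was -3.95, beside -2.10 over the 59, and without overlap hyl1-2 was lower for 3 of the 4 and higher for 0, beside 66.1% and 1.69% of the 59. With 1 and 0 reads in hyl1-2, against 35 and 7 in snrk2.2/3/6, miR173-5p was lower in hyl1-2 by at least 7.94-fold, and the adjusted p by edgeR was 0.00210. Without snrk2.2/3/6 replicate 1 the bound is 2.76-fold, and without replicate 2 it is 13.1-fold. The call was lost without hyl1-2 replicate 2 (adjusted p = 0.0626), without snrk2.2/3/6 replicate 1 (adjusted p = 0.0514), with the size factors of DESeq2 (adjusted p = 0.0821) and without a filter (adjusted p = 0.131).

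miR391-3p had 0 and 5 reads in hyl1-2 and 35 and 20 in snrk2.2/3/6, and by edgeR the log2 fold change was -3.57 ± 1.11 (standard error) with an adjusted p of 0.00715. Its call was lost without hyl1-2 replicate 1 (adjusted p = 0.162), snrk2.2/3/6 replicate 1 (0.0782) or WT replicate 2 (0.0517), with TMM factors (0.0956), total miRNA counts (0.0952) or the size factors of DESeq2 (0.126), and without a filter (0.179). With 1 and 0 reads in hyl1-2, against 17 and 5 in snrk2.2/3/6, miR391-5p was lower in hyl1-2 by at least 4.17-fold, and the adjusted p by edgeR was 0.0180. This bound is 1.97-fold without snrk2.2/3/6 replicate 1 and 6.37-fold without replicate 2. Its call was lost in 11 of 17 alternatives, and among fits without 1 library it held only without snrk2.2/3/6 replicate 2 (adjusted p = 0.00685, against 0.0563 to 0.136 without any other). miR390a-5p/b-5p had 13 and 9 reads in hyl1-2 and 15 and 8 in snrk2.2/3/6, and the log2 fold change was -0.27 ± 0.95 (standard error) with an adjusted p of 0.853 by edgeR. The libraries of the 2 mutants overlapped, and the sign turned with TMM factors (log2 fold change 1.59, adjusted p = 0.101) and without snrk2.2/3/6 replicate 1 (0.21). miR390a-3p had 1 and 0 reads in hyl1-2 and 9 and 4 in snrk2.2/3/6, a level at least 2.48-fold lower (1.58-fold without snrk2.2/3/6 replicate 1), and with a minimum of 5 reads it did not pass (adjusted p = 0.0702, edgeR).

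For each tested member the 3 other sequences with the most similar pattern were found by the root mean square difference of log2(RPTM + 1) over the 6 libraries, each sequence centred on its own mean. Nearest to miR390a-5p/b-5p were miR167d (difference 0.34), the sequence shared by miR166a-3p to miR166g (0.37) and miR408-3p (0.44), beside a median of 0.91 over the 55 other sequences. The nearest of these, miR167d, had 12 and 8 reads in hyl1-2, 29 and 11 in snrk2.2/3/6, and 43 and 40 in WT. Nearest to miR173-5p were miR781a/b (0.32), miR319c (0.35) and miR159b-3p (0.39), beside a median of 0.96. Nearest to miR391-5p were miR159b-3p (0.28), miR319c (0.32) and miR403-3p (0.32), beside a median of 0.83. miR173-5p and miR391-5p thus shared 2 of their 3 nearest sequences and were 0.41 apart themselves, whereas miR391-5p was 0.99 from its relative miR390a-5p/b-5p and 1.05 from its own other arm. In hyl1-2 both miR173-5p and miR391-5p had 1 and 0 reads, and miR391-3p had 0 and 5. These distances therefore rest in part on counts at or near the floor. Nearest to miR391-3p were the sequence shared by miR395b, miR395c and miR395f (0.44), miR846-3p (0.51) and the shared miR166a-5p/b-5p (0.58), beside a median of 1.17.

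Other Arabidopsis miRNAs known to set off secondary siRNAs, from pentatricopeptide repeat, TIR1/AFB auxin receptor and NBS-LRR resistance gene transcripts, are miR161, miR393, miR400 and miR472. Of their 8 listed sequences all had a read and 2 were tested. The list goes by name and holds both arms. The only sequence of miR393 tested was miR393b-3p, so its values are not those of the 5p arm. In hyl1-2, miR161.1, which targets pentatricopeptide repeat transcripts, was lower than in WT by edgeR (log2 fold change -3.15 and adjusted p = 0.000747), while for miR393b-3p these values were 0.22 and 0.849. In snrk2.2/3/6 neither passed. Of the 7 sequences of miR162, miR168 and miR403, whose targets DCL1, AGO1 and AGO2 act in small RNA pathways, 5 were tested. Both arms of miR168 and of miR403 were among these 5. In hyl1-2, 2 of the 5 were lower than in WT and 0 higher, with a median log2 fold change of -1.87 (67.8% lower and a median of -2.62 over the 59), and in snrk2.2/3/6 0 of the 5 passed, with a median of -0.62. Of the 39 sequences with 22 bases 21 had a read and 5 were tested, miR173-5p among them. In hyl1-2, 3 of these 5 were lower than in WT and 1 was higher, beside 67.8% and 1.69% of the 59. Their median log2 fold change was -2.26 beside the same -2.62. In snrk2.2/3/6 0 of these 5 passed, beside 3.39% of the 59 lower and 0% higher. Their median there was 0.23 beside -0.72 over the 59.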

How the data were processed

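Small RNA was sequenced in 6 libraries, and the sample titles gave genotype and replicate number. The authors removed adaptors, kept reads of small RNA size, placed them on TAIR10 and took those with the exact sequence of a miRBase mature miRNA. The mapping tool is not given in the sources used here. The deposited count values are raw reads per mature sequence. The deposited RPTM values are a signal, the count per 10000000 genome-matched reads of the library. These totals were recovered here from counts and RPTM. Counts were tested with edgeR 4.0.16 (glmQLFit and glmQLFTest, R 4.3.3) in 1 fit over the 6 libraries by genotype alone, the genome-matched totals as library sizes and no TMM factors. Tested were the 59 sequences that averaged 10 reads or more per library, with Benjamini-Hochberg adjustment over all 59 and a threshold of 0.05. Standard errors were taken as the absolute log2 fold change over the root of the F statistic. Where every library of a mutant had 3 reads or fewer, the fold is a lower bound, the mean RPTM of the other group over the mean floor of the mutant. The fit was tested on simulated data. These were drawn with less spread between libraries than the fit found here, and with fewer changed sequences than were called in hyl1-2. The simulation is therefore no check of the fit at the spread of these libraries. The replicates were distinct libraries, with a chi-square over its degrees of freedom of 13.6 for hyl1-2, 18.0 for snrk2.2/3/6 and 10.5 for WT. The p-values of edgeR measure the spread between replicate libraries, estimated with all tested sequences together and not from each sequence alone. Sequences were matched to TAIR10.1 and its RefSeq annotation. TAS sites were the ungapped windows of best pairing, where a G:U pair counted less than a mismatch. Alternatives used DESeq2 1.42.0 and limma 3.58.1. Figures were drawn with matplotlib 3.10.9, and other steps used numpy 2.4.6, pandas 2.3.3 and Python 3.11.15. The named sequences were all members and, for each tested member, the 3 other sequences of most similar pattern. Also named were miR161.1 and miR393b-3p, the 2 tested sequences of a list that was planned for counts and median only. Members and lists were chosen with earlier results of these data known.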

Additional observations from a re-analysis of the deposited data

Results flagged for a closer look

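For 3 of the 4 tested members, hyl1-2 and snrk2.2/3/6 had unlike changes from WT by the direct comparison in edgeR. In the same comparison 27 of all 59 sequences (45.8%) were lower in hyl1-2, so such a difference is not particular to the members. The log2 fold change of hyl1-2 over snrk2.2/3/6 was -3.57 for miR391-3p, -4.32 for miR391-5p and -5.24 for miR173-5p. The last 2 are fitted values with hyl1-2 at the floor, and their lower bounds are 4.17-fold and 7.94-fold, or 1.97-fold and 2.76-fold without snrk2.2/3/6 replicate 1. Both hyl1-2 libraries lay below both snrk2.2/3/6 libraries for all 3, as for 66.1% of the 59. The WT values cancel in these log2 fold changes, each of which is the difference of the 2 changes. The WT libraries still enter the estimate of spread, so the calls are not free of them.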

How the results depend on the processing

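Over 17 alternatives for each of the 4 tested members and 3 comparisons, 152 values kept their direction and side of the threshold, 35 lost the threshold, 6 gained it and 11 turned sign, and none of the 11 passed the threshold. miR390a-5p/b-5p turned sign in hyl1-2 over WT with TMM factors (0.83), total miRNA counts as library sizes (0.52) and the own size factors of DESeq2 (0.65), and in hyl1-2 over snrk2.2/3/6 with the same settings (1.59, 1.36 and 1.37) and without snrk2.2/3/6 replicate 1 (0.21, against -0.61 without replicate 2). miR173-5p turned sign in snrk2.2/3/6 over WT with these settings (0.34, 0.29 and 0.31) and without snrk2.2/3/6 replicate 2 (0.38, against -1.85 without replicate 1). These scalings moved the median log2 fold change of the 59 sequences to between -0.46 and 0.12 over the 3 comparisons.

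Over all sequences, 40 were lower and 1 higher in hyl1-2 than in WT, against 15 and 10 with TMM factors, 17 and 8 with total miRNA counts, 10 and 10 with the size factors of DESeq2, and 0 and 0 of 174 without a filter, where 64 were lower and 1 higher at an unadjusted p under 0.05. In snrk2.2/3/6 against WT, 2 were lower and 0 higher, against 4 and 4 with TMM factors or total miRNA counts, 4 and 5 with the size factors of DESeq2, 4 and 0 with DESeq2 and genome-matched totals, 7 and 0 with limma on log2(RPTM + 5), and 0 and 0 without a filter (12 and 2 unadjusted). In hyl1-2 against snrk2.2/3/6, 27 were lower and 0 higher, against 8 and 10 with TMM factors or the size factors of DESeq2, 13 and 10 with total miRNA counts, 12 and 0 with only these 4 libraries, 0 and 0 without a filter (40 and 1 unadjusted), and 1 higher with DESeq2 and genome-matched totals or with limma at either pseudocount. Without 1 library, 18 to 48 were lower and 0 to 1 higher in hyl1-2 than in WT, 0 to 20 lower and 0 higher in snrk2.2/3/6 than in WT, and 2 to 38 lower and 0 to 3 higher in hyl1-2 than in snrk2.2/3/6. The count fell to 18 to 20 in hyl1-2 against WT without any hyl1-2 or WT library, was 20 in snrk2.2/3/6 against WT without snrk2.2/3/6 replicate 1, and in hyl1-2 against snrk2.2/3/6 was 2 to 15 without any library but snrk2.2/3/6 replicate 2. Such fits assume that the lone library varies like those of the other genotypes.

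With the replicate number as a block, the only member call that changed was that of miR391-5p between the mutants (adjusted p = 0.0647, edgeR), and 38, 3 and 26 sequences were lower in the 3 comparisons. The titles give the replicates only a number, and same-numbered deviations correlated across the 59 sequences with r = 0.29 between hyl1-2 and WT, -0.30 between snrk2.2/3/6 and WT and -0.18 between the mutants. With the snrk2.2/3/6 numbers crossed in the block, an alternative added after the data were seen, 42, 2 and 19 were lower. The bounds without 1 library were also added after the data were seen. Counts of 5 reads or fewer limit every value of the members at or near the floor in hyl1-2.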
